A study of Mus musculus with 7 samples.

Results

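The DNAJ genes encode J-domain proteins, the co-chaperones that decide where and on which substrates the HSP70 chaperones work. All protein-coding genes named Dnaja, Dnajb or Dnajc plus a number were taken from the deposited gene table of mouse motor cortex, which gave 45 genes of 54532. They comprised 4 class A, 13 class B and 28 class C genes. RNA was sequenced from 7 libraries, 3 labelled WT and 4 labelled cKO (conditional knockout). All animals had received the GA100 virus on postnatal day 0, into the left and the right lateral ventricle, and tissue was taken 3 months later. By the series title these are C9orf72 poly-GA mice, poly-GA being a glycine-alanine dipeptide repeat protein. Uninjected animals were not analysed here, so the only contrast is between genotypes that both carry the virus. TIA1, an RNA-binding protein of stress granules, appears in the title, but the labels do not give the deleted gene or exons, the Cre driver, the cells it acts in or the viral promoter. No label says that each library came from a separate mouse. By Xist and Ddx3y counts each group held female and male libraries, so not all came from the same mouse. The tests see only the spread among libraries, part of which may be technical.

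A J domain binds HSP70 and stimulates its ATPase, which locks HSP70 onto the client that the J protein has brought. Class A proteins also carry a glycine- and phenylalanine-rich stretch and a zinc-finger-like region, class B proteins the glycine- and phenylalanine-rich stretch alone, and class C proteins share only the J domain and are otherwise unlike one another. The heat shock response induces several cytosolic members and the unfolded protein response several members of the endoplasmic reticulum, while neurons use specialised class C members at the synaptic vesicle and on clathrin coats.

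Library totals lay between 15181390 and 16463721 gene counts. Tia1, the gene named in the title, stood at 60.7, 95.8 and 69.0 CPM (counts scaled to a common library total) in the WT libraries and at 81.4, 80.4, 72.7 and 81.9 CPM in the cKO libraries (log2 fold change 0.07 ± 0.13, SE), so its level did not separate the labels, and WT and cKO below mean libraries so labelled. Across the 16308 genes tested by edgeR's quasi-likelihood test with Benjamini-Hochberg adjustment, 0% were called at an adjusted p under 0.05, and the smallest adjusted p was 0.669. At an unadjusted p under 0.05 stood 1164 genes. The cKO replicate 3 library stood apart in its summed olfactory bulb markers, 213 CPM against 10.6 to 13.2 CPM in the other 6 libraries, and cKO replicate 4 in its choroid plexus markers, 176 CPM against 15.5 to 23.2 CPM. Striatal markers were highest in cKO replicate 2 (1551 CPM against 803 to 1164), with 8 of 8 above 0, and 10 of 10 myelin markers were above 0 (3860 to 5898 CPM in WT, 4198 to 8331 in cKO). Meningeal markers were highest in WT replicate 1 (480 CPM) and cKO replicate 3 (441 CPM).

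No DNAJ gene was called either. Of the 45 genes, 38 had enough counts to be tested, and their adjusted p ran from 0.679 for Dnajc3, a co-chaperone of the endoplasmic reticulum, to 0.999 for Dnajb6 (edgeR's quasi-likelihood test with Benjamini-Hochberg adjustment over all genes), against 0% called among all genes. Unadjusted, 2 of the 38 had a p under 0.05, Dnajc3 and the heat shock gene Dnajb1, both with the higher mean in cKO. Among all tested genes 7.14% had such a p, 4.22% with the cKO mean above WT and 2.91% with it below. With the replicate number as a block the count of DNAJ genes went from 2 to 1, Dnajb1 then lying above that threshold. Number 4 occurs only in cKO, so the block takes that library out of the contrast. Leaving out cKO replicate 4 without a block also gave a count of 1. DESeq2 and limma-voom called 0 DNAJ genes as well, with 2 at an unadjusted p under 0.05 in each.

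Log2 fold changes of the 38 genes lay between -0.20 and 0.38 with a median of 0.01, the same median as over all tested genes. Values above 0 were found for 20 DNAJ genes, 52.6%, against 51.8% of all tested genes. Only Dnajc3 and Dnajb1 differed by more than 0.25 on the log2 scale in either direction. The 95% interval lay within 0.5 of 0 for 34 of the 38 genes. These intervals rest on the spread among libraries, part of which may be technical, so they do not bound a difference between animals of each genotype. By class, 2 of 4 class A genes, 7 of 9 class B genes and 11 of 25 class C genes tested had values above 0, with medians of 0.00, 0.13 and -0.02. By compartment, the count was 10 of 16 in the cytosol and nucleus (median 0.02), 7 of 11 in the endoplasmic reticulum (0.10), 2 of 6 in mitochondria (-0.04) and 1 of 3 on vesicles and endosomes (-0.01). Standard errors of single genes ran from 0.0721 to 0.215.

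**Figure D1:**
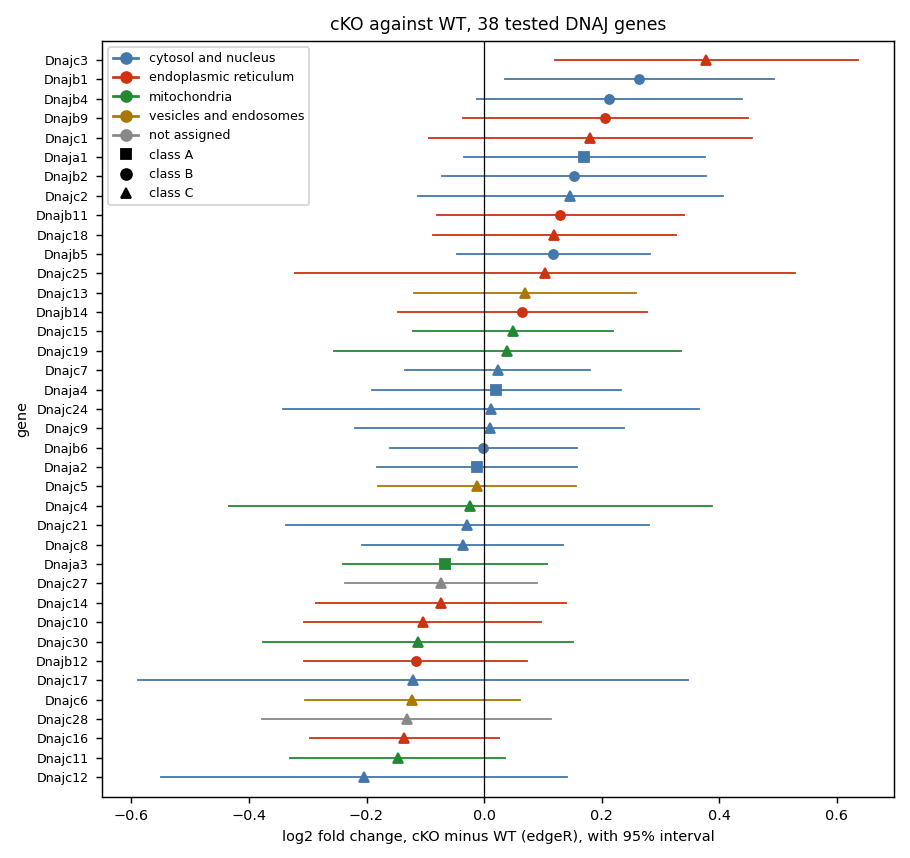
Log2 fold change of cKO against WT (x axis) for each of the 38 tested DNAJ genes (y axis), with the 95% interval of edgeR's fit as a line, colour for the compartment and symbol for the class. Dnajc3 at 0.38 and Dnajb1 at 0.26 are the 2 genes whose interval leaves out 0.

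The cKO and WT libraries did not overlap for 4 of the 38 genes. Every cKO library was above every WT library for Dnajc3 and Dnajb9, 2 of 38 against 3.97% of all tested genes, and below for Dnajc11 and Dnajc16, 2 of 38 against 3.42%. Without overlap, the exact permutation test (two-sided) can only return its floor for 35 assignments of 3 and 4 libraries, a p of 0.0571. That value was thus fixed by how these 4 genes were picked and adds nothing to the lack of overlap. In bulk tissue, fewer cells of a type and less RNA per cell cannot be told apart.

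Several members of the endoplasmic reticulum serve Hspa5 (BiP), the HSP70 of its lumen. Dnajc3 (ENSMUSG00000022136, chromosome 14, 118937976 to 118981697, forward strand, mm10, as are all gene positions here), also known as p58IPK, brings misfolded proteins to Hspa5 and is known as an inhibitor of eIF2-alpha kinases. It stood at 89.1, 96.0 and 93.3 CPM in WT and at 97.3, 116, 149 and 120 CPM in cKO. The lowest cKO library, replicate 1, lay just above the highest WT library, and the spread within cKO (121 ± 21.2 CPM, SD, n = 4) was wider than within WT (92.8 ± 3.48 CPM, n = 3). The log2 fold change was 0.38 ± 0.12 (SE, 95% interval 0.12 to 0.64), with an adjusted p of 0.679 in edgeR's quasi-likelihood test with Benjamini-Hochberg adjustment. The call depended on the filter, since with no filter on low counts the adjusted p was 0.0229 in edgeR and Dnajc3 passed. Its log2 fold change was then 0.37, close to the main value, while its unadjusted p in edgeR went from 0.00776 to 0.000111. In DESeq2 its adjusted p was 0.312. Leaving out cKO replicates 3 and 4 together lowered the log2 fold change to 0.20.

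The promoter of Dnajc3 was the only 1 among those of the family to hold the endoplasmic reticulum stress response element, the sequence bound by ATF6 with NF-Y in the unfolded protein response, and it is shown because Dnajc3 had the highest fold change of the family. The element was searched as CCAAT, any 9 bases, CCACG, on both strands, in RefSeq promoters of GRCm38.p6 that reach from 250 bases before to 50 bases after a start site. A promoter was given for 37 of the 45 genes. The capitals mark the match, which lies at chr14:118937827-118937845, from 105 to 87 bases before the start site, within the forward strand of chr14:118937802-118937870.
Dnajc3: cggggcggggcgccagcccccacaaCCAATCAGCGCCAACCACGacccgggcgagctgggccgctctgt

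The element occurred in 39 of 32851 promoters, 0.119%, and in those of 37 of 27025 genes. Of those 37 genes 18 were tested, and 15 of them, 83.3%, had a log2 fold change above 0, against 51.8% of all tested genes, with a median of 0.13 and 0 called. Of the tested genes with an unfolded protein response element in a promoter 51.2% of 123 were above 0 (median 0.01), and of those with a heat shock element 48.5% of 66 (median -0.00). Hspa5 and Dnajc3 had the smallest p of the 18. Dnajc3, for which the element is shown, is itself counted among the 15. Hspa5, Hsp90b1, Creld2, Pdia6, Calr, Canx and Syvn1 are also counted below among unfolded protein response genes, so the counts share members. The count by element is a description of genes that share letters, and no binding was measured.

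Dnajb9 (ERdj4, ENSMUSG00000014905, chromosome 12, 44205559 to 44210326, reverse strand) takes part in the degradation of misfolded proteins of the endoplasmic reticulum and is known to hold the stress sensor IRE1 in check. It stood at 49.7, 48.7 and 48.3 CPM in WT and at 51.2, 51.3, 69.9 and 53.3 CPM in cKO. Replicate 3 stood far above the other cKO libraries, which were only slightly above WT. On the log2 scale the difference was 0.21 ± 0.11 (adjusted p = 0.715, edgeR), and 0.080 without cKO replicate 3.

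Dnajb11 (ERdj3, ENSMUSG00000004460, chromosome 16, 22857845 to 22879634, forward strand) is a soluble co-chaperone that binds unfolded chains in the lumen. Its values were 51.2, 45.8 and 49.7 CPM in WT and 49.4, 52.5, 50.2 and 61.8 CPM in cKO. Here replicate 4, not 3, was the high library, and the groups overlapped. This gave a log2 fold change of 0.13 ± 0.10 (adjusted p = 0.785, edgeR), and 0.046 without cKO replicate 4.

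Dnajc10 (ERdj5, ENSMUSG00000027006, chromosome 2, 80315466 to 80354043, forward strand) is a disulfide reductase that opens misfolded proteins for export and degradation. It stood at 85.9, 88.7 and 94.1 CPM in WT and at 80.1, 77.7, 97.5 and 78.0 CPM in cKO. All cKO libraries but replicate 3 were below WT, and replicate 3 was above all others. The fitted log2 difference was -0.10 ± 0.09 (adjusted p = 0.821, edgeR), and -0.20 without cKO replicate 3. Of the 4 members induced by the unfolded protein response, 3 thus had values above 0, with a median of 0.17.

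Dnajc16 (ENSMUSG00000040697, chromosome 4, 141760189 to 141790931, reverse strand), a membrane protein of the endoplasmic reticulum with a thioredoxin-like domain, had lower values in cKO. It stood at 95.04, 93.3 and 102 CPM in WT and at 91.4, 90.2, 88.1 and 83.0 CPM in cKO. The ranges did not overlap, although the lowest WT and highest cKO libraries were close. In log2 terms cKO differed by -0.14 ± 0.07 (adjusted p = 0.717, edgeR).

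The remaining 6 members of this compartment overlapped between genotypes. They included Dnajb12 and Dnajb14, membrane proteins that work with cytosolic HSP70 in degradation from the endoplasmic reticulum, with log2 fold changes of -0.12 and 0.07. Dnajc1, which contacts ribosomes at the translocon, was at 0.18, Dnajc18 at 0.12, Dnajc25 at 0.10 and Dnajc14, a chaperone for membrane receptors on their way out, at -0.07. Of the exon bases of Dnajc14, 19.9% are shared with other genes (Ormdl2, Tmem198b and Sarnp), so its counts may hold their reads.

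The promoter of Dnajc25 was the only 1 of the family with the unfolded protein response element TGACGTGG, searched on both strands and found in 0.676% of promoters. This promoter, chr4:59002943-59003242, belongs to a start site inside the gene as deposited, which begins at 58995062. The match lies at chr4:59003144-59003151, and the forward strand of chr4:59003119-59003176 is printed with it in capitals.
Dnajc25: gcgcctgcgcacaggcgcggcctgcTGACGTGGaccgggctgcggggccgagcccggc

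Among the cytosolic members, Dnajb1 (Hsp40, ENSMUSG00000005483, chromosome 8, 83608193 to 83612653, forward strand) is the main stress-induced partner of HSP70 and supports the dissolution of aggregates. It stood at 63.2, 51.4 and 55.3 CPM in WT and at 58.7, 67.3, 77.0 and 69.2 CPM in cKO. All cKO libraries but replicate 1 were above WT, and the WT libraries were themselves uneven, with replicate 1 the highest. The log2 fold change was 0.26 ± 0.10 (95% interval 0.04 to 0.49), with an adjusted p of 0.694 in edgeR's quasi-likelihood test with Benjamini-Hochberg adjustment. The exact permutation p was 0.114. Leaving out cKO replicates 3 and 4 gave a log2 fold change of 0.15.

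Dnajb4 (ENSMUSG00000028035, chromosome 3, 152178511 to 152210302, reverse strand), a close relative of Dnajb1 that heat also induces, was very even in WT, at 76.1, 76.5 and 77.9 CPM. In cKO it stood at 74.7, 88.0, 105.5 and 88.1 CPM. Replicate 1 was below WT and the other cKO libraries above it. On the log2 scale the difference was 0.21 ± 0.10 (adjusted p = 0.704, edgeR), and 0.11 without cKO replicate 3.

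Dnaja1 (ENSMUSG00000028410, chromosome 4, 40722150 to 40737149, forward strand), a class A protein that folds new and damaged proteins with Hspa8, stood at 261, 278 and 296 CPM in WT and at 285, 297, 365 and 306 CPM in cKO. Replicate 3 was again the highest library, and replicate 1 lay within the WT range. This gave a log2 fold change of 0.17 ± 0.09 (adjusted p = 0.728, edgeR), and 0.082 without cKO replicate 3. Other genes share 10.8% of its exon bases, so its counts are uncertain to that extent.

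Dnaja4 (ENSMUSG00000032285, chromosome 9, 54698873 to 54716315, forward strand), the other heat-induced class A gene, showed no such pattern. It stood at 26.2, 25.3 and 27.3 CPM in WT and at 26.7, 28.9, 23.7 and 27.3 CPM in cKO. The groups overlapped fully, and cKO replicate 3 was the lowest of all libraries. The fitted log2 difference was 0.02 ± 0.10 (95% interval -0.19 to 0.23). Of its exon bases, 44.1% are shared with the antisense gene Wdr61, and without a strand setting reads of both genes cannot be told apart.

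**Figure D2:**
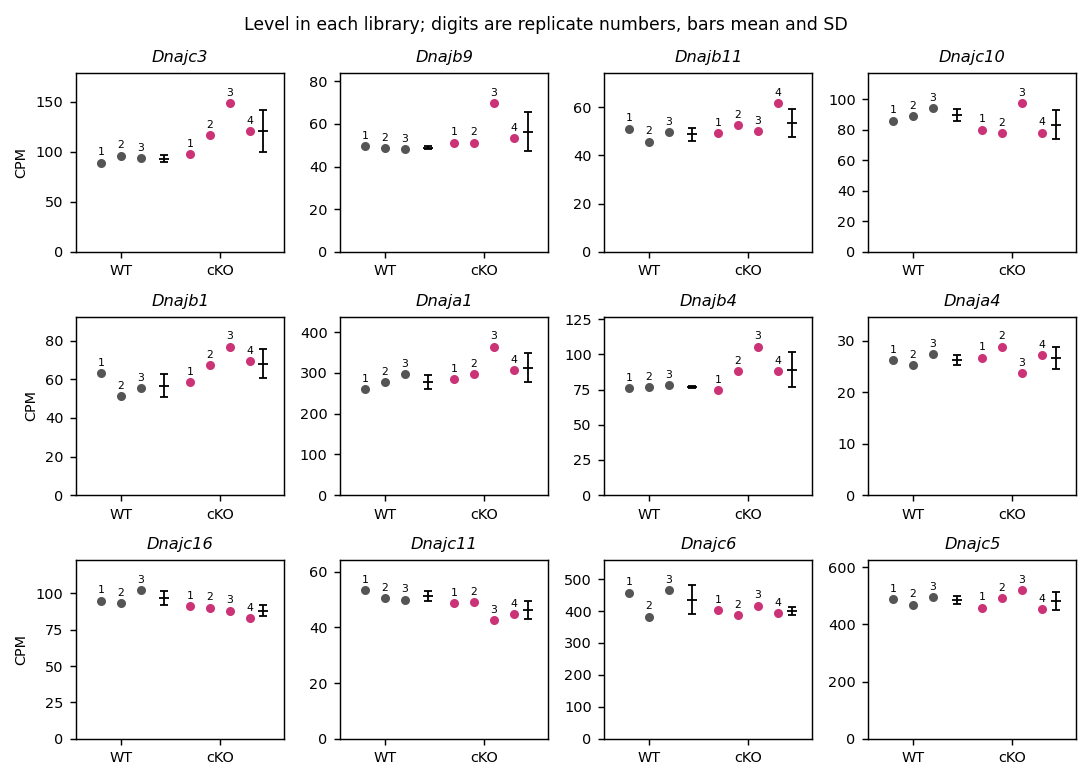
CPM (y axis, from 0) in each WT and cKO library for 12 DNAJ genes, with replicate numbers above the points and the group mean ± SD as a bar. The top row holds the members induced by the unfolded protein response, the middle row those induced by heat, and the bottom row Dnajc16, Dnajc11 and the synaptic members Dnajc6 and Dnajc5; cKO replicate 3 is the highest cKO point for Dnajc3 (149 CPM), Dnajb9, Dnajc10, Dnajb1, Dnaja1, Dnajb4, Dnajc6 and Dnajc5.

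No promoter of Dnajb1, Dnajb4, Dnaja1 or Dnaja4 in the RefSeq table matched the strict heat shock element searched, which is GAA, any 2 bases, TTC, any 2 bases, GAA, on both strands. The element was in 0.603% of promoters and, in this family, only in that of Dnajb6, at chr5:29735852-29735864. It is printed in capitals in the forward strand of chr5:29735827-29735889, as a match in a gene whose genotypes overlapped.
Dnajb6: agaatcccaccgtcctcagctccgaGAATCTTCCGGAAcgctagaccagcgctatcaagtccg

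Dnajb6 (ENSMUSG00000029131, chromosome 5, 29735688 to 29818134, forward strand) suppresses the aggregation of polyglutamine proteins. It stood at 110.5, 117.6 and 118.0 CPM in WT and at 115.2, 109.5, 123.5 and 113.0 CPM in cKO. Its means were 115 CPM in both groups, and the 95% interval of the log2 fold change ran from -0.16 to 0.16.

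Dnajb2 (ENSMUSG00000026203, chromosome 1, 75236406 to 75245692, forward strand), enriched in neurons, binds ubiquitin chains and hands clients to the proteasome. It stood at 67.8, 68.8 and 64.9 CPM in WT and at 78.6, 76.2, 60.6 and 83.2 CPM in cKO. Here cKO replicate 3 was the lowest of all libraries and the other cKO libraries were above WT. In log2 terms cKO differed by 0.15 ± 0.10 (adjusted p = 0.764, edgeR), 0.23 without cKO replicate 3 and 0.092 without cKO replicate 4.

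Dnajb5 (ENSMUSG00000036052, chromosome 4, 42949814 to 42959425, forward strand), known in the heart as a partner of histone deacetylase 4, stood at 130.8, 132.4 and 135.6 CPM in WT and at 145.6, 145.1, 131.4 and 154.9 CPM in cKO. Only replicate 3 of cKO lay within the WT range. The log2 fold change was 0.12 ± 0.08 (adjusted p = 0.756, edgeR), and 0.076 without cKO replicate 4.

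Dnaja2 (ENSMUSG00000031701, chromosome 8, 85537633 to 85555344, reverse strand), the class A partner of Hspa8 in refolding, stood at 183, 182 and 203 CPM in WT and at 182, 184, 205 and 180 CPM in cKO. Both groups had 1 high library and the rest close together. On the log2 scale the difference was -0.01 ± 0.08, with a 95% interval of -0.18 to 0.16.

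The other cytosolic and nuclear members serve narrower tasks. Dnajc2, which sits on the ribosome, was at a log2 fold change of 0.15, and Dnajc7, which passes clients between HSP70 and HSP90, at 0.02. Dnajc9, a histone chaperone, was at 0.01, Dnajc24, of the diphthamide pathway, at 0.01, and Dnajc21, of ribosome assembly, at -0.03. The splicing factors Dnajc8 and Dnajc17 were at -0.04 and -0.12. Dnajc12, the partner of the aromatic amino acid hydroxylases, had the lowest value of the family, -0.20, but at only 6.32 to 9.98 CPM its 95% interval reached from -0.55 to 0.14.

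At the synapse, Dnajc5 (cysteine string protein, ENSMUSG00000000826, chromosome 2, 181520485 to 181555133, forward strand) rides on synaptic vesicles and keeps the SNARE protein SNAP25 folded. It stood at 490, 470 and 496 CPM in WT and at 459, 491, 521 and 453 CPM in cKO. The cKO libraries lay on both sides of WT. This gave a log2 fold change of -0.01 ± 0.08, with a 95% interval of -0.18 to 0.16.

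Dnajc6 (auxilin, ENSMUSG00000028528, chromosome 4, 101496648 to 101642799, forward strand) recruits Hspa8 to strip clathrin from endocytic vesicles. It stood at 458, 383 and 466 CPM in WT and at 402, 388, 417 and 394 CPM in cKO. The cKO libraries were close together, and WT replicate 2 was the lowest of all. The fitted log2 difference was -0.12 ± 0.08 (adjusted p = 0.770, edgeR), -0.22 without WT replicate 2 and -0.071 without WT replicate 3. Summed excitatory neuron markers were 4934 to 5472 CPM in WT and 4079 to 4894 CPM in cKO, without overlap. Of the 10 markers, 7 were below 0 and none was at 0 counts. Camk2a, the largest part of the sum, overlapped between groups, at 2795 to 3352 CPM in WT and 2270 to 3088 CPM in cKO. Neurod6 alone of the 10 had every cKO library below every WT library. The part of excitatory neurons in the values of Dnajc5 and Dnajc6 was not tested. Dnajc13 (RME-8), which works with Hspa8 on endosomes, was at 0.07.

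Of the 6 mitochondrial members, Dnajc11 (ENSMUSG00000039768, chromosome 4, 151933691 to 151982137, forward strand), which associates with the complex that shapes the cristae, had the lowest fold change. It stood at 53.4, 50.5 and 49.99 CPM in WT and at 48.8, 49.0, 42.6 and 44.9 CPM in cKO. All cKO libraries were below WT, replicates 1 and 2 only just. In log2 terms cKO differed by -0.15 ± 0.08 (adjusted p = 0.731, edgeR), and -0.07 without cKO replicates 3 and 4. The matrix co-chaperone Dnaja3 was at -0.07 and Dnajc30 at -0.11, while Dnajc15 and Dnajc19, of the import motor, were at 0.05 and 0.04 and Dnajc4 was at -0.02. Exons of Dnajc30 are shared with Bud23 over 26.2% of their bases. The 2 tested genes given no compartment, Dnajc27, a small GTPase with a J domain, and Dnajc28, were at -0.07 and -0.13.

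The 7 genes that were not tested had few or no counts. Dnajc5g, a relative of the vesicle protein Dnajc5, and Dnajc22 were at 0 counts in all 7 libraries, which allows up to 3 counts, or 0.182 to 0.198 CPM, per library. Dnajb7 reached at most 2 counts in a library, Dnajc5b at most 2, and Dnajb3 and Dnajb8 at most 8. Dnajb13, a protein of the axoneme of cilia and sperm tails, had 3, 8 and 5 counts in WT and 14, 9, 5 and 11 in cKO. These overlap, and the summed ependymal markers, from the ciliated cells that line the ventricles, were 8.51 to 12.6 CPM in WT and 7.31 to 15.7 CPM in cKO.

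Levels can be compared between genes only per length, for which the authors' FPKM (fragments scaled to gene length and library total) were used. Dnajc6 at 70.0 ± 6.03 FPKM (SD, n = 7), Dnajc5 at 69.2 ± 3.71 and Dnaja2 at 63.1 ± 3.90 were the highest, with ranges that overlap, and together made up 31.3% of the family's summed FPKM. All libraries of Dnaja2 were above all those of the next gene, Dnaja1, at 34.4 ± 3.88 FPKM. Dnajc27 followed at 30.1, Dnajc8 at 24.7 and Dnajb5 at 23.4 FPKM. Among the stress-inducible members, Dnaja1 was the highest, and Dnajc3 stood at 21.1, Dnajb9 at 20.8 and Dnajb1 at 19.6 FPKM. Of the 37 neighbouring pairs in this order, 5 were separated in every library, so most ranks are not firm. In motor cortex the synaptic vesicle and clathrin members thus overlapped in level with the class A co-chaperone Dnaja2 and stood above all 8 stress-inducible members.

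**Figure D3:**
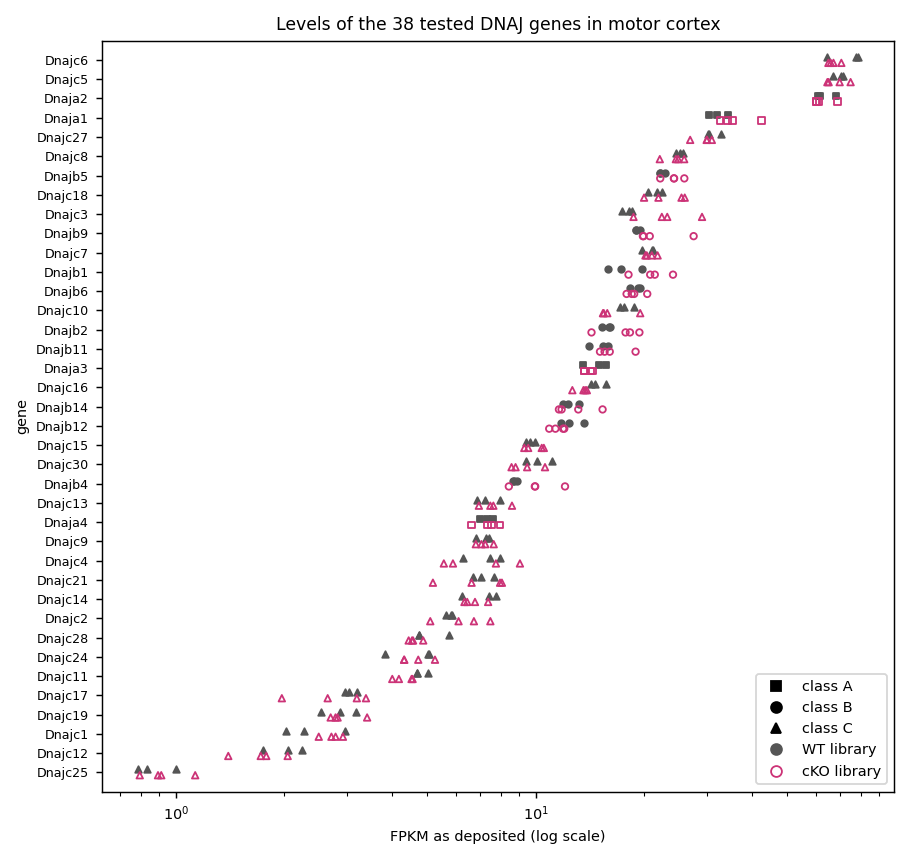
FPKM as deposited (x axis, log scale) of the 38 tested DNAJ genes (y axis, ordered by mean), with 1 symbol per library, filled for WT and open for cKO, and the symbol's shape for the class. Dnajc6, Dnajc5 and Dnaja2 stand together at 63.1 to 70.0 FPKM on average, apart from Dnaja1 and the rest.

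The family's summed FPKM lay between 619 and 692, the highest in cKO replicate 3. Class A held 17.7 to 19.1% of it in all libraries. Class B held 22.5, 22.6 and 22.0% in WT and 23.4, 23.8, 23.6 and 25% in cKO. Class C held 59.8, 59.1 and 58.9% in WT and 58.3, 58.0, 57.3 and 56.7% in cKO. The genotypes did not overlap for either class, but the 2 shares come from 1 sum, and they are given as a description without a test.

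Across the family 1 library stood out. The cKO replicate 3 library was the highest for 16 of the 38 genes and the lowest for 7, while it was the highest for 24.9% and the lowest for 24.0% of all tested genes. By mean log2(CPM + 0.1) relative to each gene's mean over all libraries, the 4 members induced by the unfolded protein response stood at -0.088, -0.097 and -0.060 in WT and at -0.083, -0.008, 0.258 and 0.079 in cKO. The 4 heat-induced members stood at -0.079, -0.142 and -0.057 in WT and at -0.074, 0.078, 0.195 and 0.079 in cKO. In both groups cKO replicate 1 lay within the WT range and replicate 3 was the highest. The 6 mitochondrial members had no such order, at 0.101, 0.001 and -0.020 in WT and 0.069, -0.091, -0.045 and -0.016 in cKO.

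The cKO replicate 3 library is also the 1 with the olfactory bulb markers, of which 5 of 5 tested had values above 0 in cKO and Eomes and Tbx21 were at 0 counts in some libraries. Summed inhibitory neuron markers were highest there as well, 1324 CPM against 850 to 1050 CPM in the other libraries. Most of this sum was Gad1 (591.5 CPM) and Gad2 (415.1 CPM), and the markers did not move together. Gad1, Gad2, Slc32a1 and Adarb2 were each highest in that library, Pvalb and Lhx6 were lowest there, and Sst and Vip lay in between. The part of olfactory bulb cells and inhibitory neurons in the values of the DNAJ genes was not tested. Without cKO replicate 3 the log2 fold change stayed above 0 for Dnajc3 (0.25) and Dnajb1 (0.19).

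**Figure D4:**
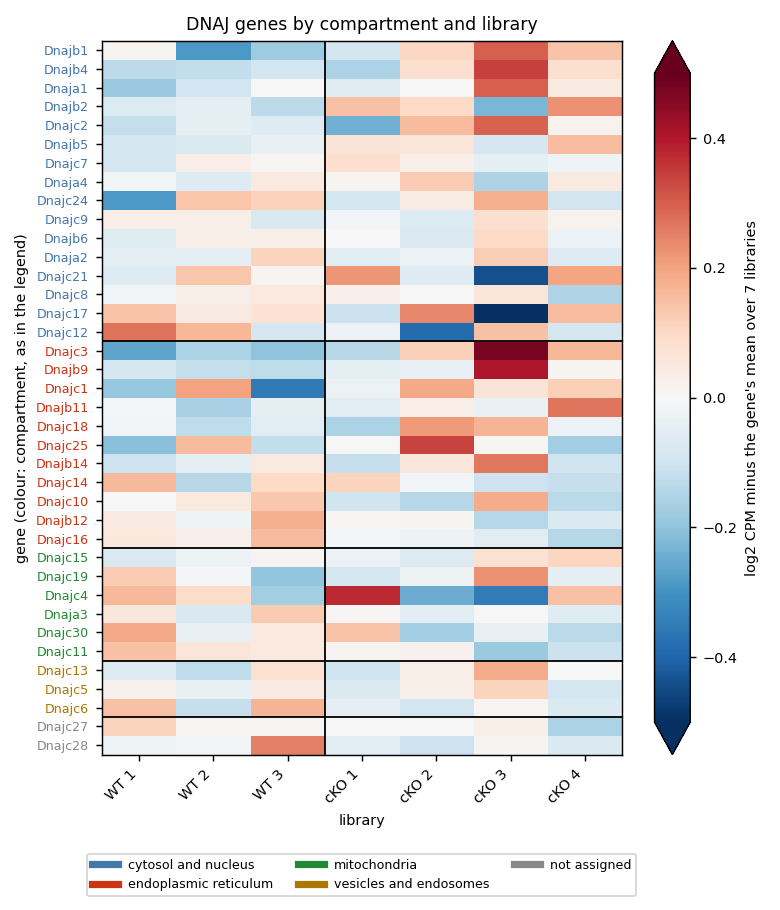
Log2 CPM relative to each gene's own mean over all libraries (colour, with the scale ending at 0.5 in either direction) for the 38 tested DNAJ genes (rows, grouped by compartment and ordered by fold change) in each library (columns, WT left of the line). The darkest red cells are Dnajc3 and Dnajb9 in cKO replicate 3, and the genes at the top of the cytosolic block, Dnajb1, Dnajb4 and Dnaja1, are red in the same column.

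Among the HSP70 genes that the co-chaperones serve, Hspa5, Hspa1a and Hspa1b had higher fold changes than any DNAJ gene. Hspa5, the partner of several endoplasmic reticulum members, stood at 317, 386 and 366 CPM in WT and 378, 492, 603 and 537 CPM in cKO. Hspa1b, the stress-induced cytosolic partner, stood at 9.12, 11.7 and 7.60 CPM in WT and 17.0, 23.6, 36.6 and 36.7 CPM in cKO. The log2 fold changes were 0.50 ± 0.14 for Hspa5 and 1.59 ± 0.26 for Hspa1b, neither called. Hspa1a, the near-identical copy of Hspa1b whose reads may be split between them, stood at 6.30, 7.41 and 6.01 CPM in WT and 7.72, 10.1, 21.8 and 12.7 CPM in cKO (0.99 ± 0.29, not called). Hspa8, the constitutive partner of Dnajc5, Dnajc6 and Dnaja2, was at 0.08 ± 0.13. The cKO and WT libraries overlapped for Hspa8, while Hspa1b was above WT in all 4 cKO libraries and Hspa5 in replicates 2, 3 and 4.

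Of the 15 HSP70 genes tested, 12 had values above 0 and 5 an unadjusted p under 0.05 by edgeR, all higher in cKO, with a median of 0.10. This list also counts the larger relatives Hspa4, Hspa4l, Hsph1 and Hyou1, which act as nucleotide exchange factors. All of these were above 0, and Hspa4l and Hsph1 are among the 5. Among all tested genes 51.8% were above 0 and 4.22% had such a p with the cKO mean above WT. The mean deviation of the HSP70 genes was highest in cKO replicate 3, at 0.283, and in cKO replicate 1, at -0.110, it was close to WT, at -0.185, -0.116 and -0.141. Of 14 nucleotide exchange factors and other regulators of the HSP70 cycle, 7 were above and 7 below 0. Unadjusted p under 0.05 were found for Bag3 (0.52 ± 0.15) and Chordc1 (0.40 ± 0.11), higher in cKO, and for Stub1, the ubiquitin ligase of the cycle (-0.23 ± 0.09), and Hspbp1 (-0.21 ± 0.10), lower. Among J-domain proteins with other names, Sec63 was at 0.07, Gak, the second auxilin, at -0.06 and Hscb at -0.20. Of 20 genes of the unfolded protein response outside the DNAJ family, 17 were above 0, with a median of 0.15. An unadjusted p under 0.05 by edgeR was found for 7, all higher in cKO, beside the same 51.8% and 4.22% of all tested genes. Hspa5 and Hyou1 are also among the 15 HSP70 genes, so these lists share members. Several of the 20, such as Hspa5 and Hsp90b1, were also counted above among genes with the endoplasmic reticulum stress response element. Hspa5 is counted among the 5 as well as among the 7. None of these genes was called by edgeR after adjustment.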

How the data were processed

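The deposited tables hold raw gene counts made by the authors and the authors' FPKM for the same genes and libraries. The build was mm10, and the tools were featureCounts 1.5.0-p3 with DESeq2 1.20.0, per the submitters' processing notes. Which aligner, strand setting and annotation release were used, and how multiply matching reads were treated, is not given in the sources used here. The deposited FPKM imply library totals of 0.968 to 1.02 times the count sums.

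The counts of all 7 libraries were fitted with edgeR 4.0.16 in R 4.3.3 (TMM scaling, default filterByExpr, quasi-likelihood F test of cKO against WT), with Benjamini-Hochberg adjustment over 16308 genes and a threshold of 0.05. CPM use TMM-scaled totals. Exact two-sided permutation tests used SciPy 1.17.1, and figures matplotlib 3.10.9. The script was tested on simulated counts. Coordinates were the same in GENCODE vM21 for 43 of the 45 genes, and exon overlaps were taken from it.

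The members and gene lists were chosen with earlier results of these data known. Values per library are given for the 10 members with the smallest p, the heat shock (Dnaja1, Dnaja4, Dnajb1, Dnajb4) and unfolded protein response (Dnajb9, Dnajb11, Dnajc3, Dnajc10) members, the 2 with the highest FPKM in each class, and Dnajb2, Dnajb6, Dnajc5 and Dnajc6; other genes given with values were chosen after their values were seen.

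Replicate numbers 1, 2 and 3 are shared by both groups. Number 4 occurs only in cKO, so the replicate block takes cKO replicate 4 out of the contrast. Deviations of same-numbered libraries from their group means correlated at 0.110, 0.128 and 0.122 across genes, each above the limit of 0.1, so number pairs were accepted, although 2 pairs with unlike numbers correlated more, at 0.210 (WT 2, cKO 4) and 0.129 (WT 1, cKO 3). By Xist and Ddx3y counts WT replicate 1 and cKO replicate 1 were female and the other libraries male, so pair 1 is also a match of sex. Alternatives were RLE scaling, library totals only, no filter or a stricter filter (CPM of 1 in 3 libraries), limma-voom, DESeq2 1.42.0, limma 3.58.1 on log2 FPKM (pseudocount 1 or 0.1, genes at 0.5 FPKM or more on average, or all genes), the replicate block, sex as a covariate, an adjusted p under 0.1, and libraries left out. A result for 1 gene of the lists is not reported here.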

Additional observations from a re-analysis of the deposited data

Results flagged for a closer look

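A gap test within the 4 cKO libraries marked 4 of the 38 tested DNAJ genes, where chance marks about 1 group in 20. The share marked among all tested genes was not measured, so the count cannot be read as a trait of the family. Dnajb9 at 69.9 CPM, Dnajc10 at 97.5 CPM and Dnaja2 at 205 CPM were high in cKO replicate 3. Dnajc27, the small GTPase with a J domain, was low in cKO replicate 4, at 137.9 CPM against 153.8 to 156.7 CPM in the other cKO libraries. In each case the gap to the nearest cKO library, as a share of the group's range, was above Dixon's critical value for 4 samples.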

How the results depend on the processing

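With no filter on low counts 198 genes were called, 148 of them higher in cKO, and among them 1 DNAJ gene, Dnajc3. DESeq2 called 13 genes, limma on log2(FPKM + 1) with no filter 3, and edgeR without cKO replicates 3 and 4 called 1, none of them a DNAJ gene; the cause was not tested. Leaving out 1 library gave 0 to 3 genes called and 0 DNAJ genes. With the replicate block 2 genes were called, and no DNAJ gene; the block changed no other call. DNAJ genes with values above 0 numbered 16 to 24 over all settings, and 22 of the 38 kept their sign in every setting, 11 above and 11 below 0. Signs turned with the replicate block for Dnaja2 (0.0073), Dnajb6 (0.0074), Dnajc5 (0.013) and Dnajc8 (0.0062), and with sex as a covariate for Dnajc24 (-0.0014). The block takes cKO replicate 4 out of the contrast. Leaving out that library without a block also turned Dnaja2 (0.0012), Dnajb6 (0.0023), Dnajc5 (0.0087) and Dnajc8 (0.000067). Without cKO replicates 3 and 4 they turned for Dnajb14 (-0.0026), Dnajc4 (0.057), Dnajc9 (-0.041), Dnajc13 (-0.0018), Dnajc15 (-0.028), Dnajc19 (-0.044), Dnajc21 (0.049) and Dnajc24 (-0.029). Leaving out 1 library turned signs within these ranges: Dnaja2 -0.064 to 0.042, Dnaja4 -0.027 to 0.065, Dnajb6 -0.043 to 0.015, Dnajb14 -0.028 to 0.11, Dnajc4 -0.18 to 0.071, Dnajc5 -0.060 to 0.0087, Dnajc7 -0.015 to 0.036, Dnajc8 -0.069 to 0.000067, Dnajc9 -0.026 to 0.025, Dnajc17 -0.23 to 0.0065, Dnajc19 -0.043 to 0.11, Dnajc21 -0.12 to 0.085, Dnajc24 -0.12 to 0.076 and Dnajc25 -0.011 to 0.21. Depth limits the genes under 10 CPM most, such as Dnajc17 with a standard error of 0.215.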
